A study of Mus musculus with 8 samples.

Results

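Notch signalling in the right ventricle was described through 10 genes of the pathway, of 30495 genes in the deposited count table. They are the receptors Notch1 and Notch4, the ligands Dll1, Dll4, Jag1 and Jag2, the DNA-binding factor Rbpj, and the target genes Hey1, Hey2 and Heyl. They were picked by gene symbol, and all 10 were found and passed the filter on low counts. The samples were right ventricles of female mice aged 8 weeks, profiled by bulk RNA sequencing in 8 libraries. Fpr2-KO SuHx mice lacked Fpr2, the gene of formyl peptide receptor 2, and received Sugen at 20 mg/kg with 3 weeks of hypoxia. Fpr2-KO control mice lacked the gene and stayed at normal oxygen for 21 days. WT SuHx and WT control mice carried the gene and had the same 2 treatments. Each group has 2 libraries, named here by the number in their column (2 and 3 in both Fpr2-KO groups, 1 and 3 in WT SuHx, 1 and 2 in WT control). Sugen blocks VEGF receptors and, with hypoxia, is a rodent model of pulmonary hypertension.

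Notch receptors are membrane proteins that are cut when a ligand of the Delta or Jagged family on a neighbouring cell binds them. The freed intracellular part enters the nucleus, joins RBPJ and a Mastermind protein, and switches on repressors of the HES and HEY families. In the heart the pathway is known above all from endothelial cells, where VEGF raises Dll4 and Dll4 restrains sprouting, from mural cells, and from the formation of chambers and valves. Notch4 is largely an endothelial receptor, Heyl is a target best known from vascular smooth muscle, and Hey2 marks ventricular muscle in the mouse while Hey1 marks the atria.

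Libraries held 67965311 to 76292772 counts, of which mitochondrially coded genes took 24.2% to 28.2%. Fpr2 had 0 counts in all 4 Fpr2-KO libraries, against 12, 12, 19 and 23 in the WT libraries, so the columns follow their genotype, although a label field of 3 Fpr2-KO samples names other Fpr genes. Nothing in the labels ties libraries to separate animals, and the p-values therefore reflect library spread that could be technical. Fpr2-KO SuHx library 2 stood apart by atrial RNA: the summed level of 8 atrial muscle markers was 2681 CPM there (TMM-scaled CPM, each count divided by the effective library size) and 73.6 CPM in library 3 of its group, with the atrial light chain Myl7 at 205 and 0 CPM. In the other 6 libraries this sum ran from 63.1 to 355 CPM, the last in WT control library 2. Endothelial identity was present throughout, with Pecam1 at 128 to 202 CPM and Cdh5 at 111 to 230 CPM.

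Upstream sequences were available for 8 of the 10 genes (RefSeq, GRCm38.p6). The binding site of RBPJ was searched as TGGGAA on both strands, that is TGGGAA or TTCCCA, in the 250 bases before each annotated start. Such a match lay before an annotated start of 2 of the 8 genes, Hey2 and Rbpj. Counted by promoter, 3 of the 10 of these genes held a match, beside 21.6% of all 32851 promoters in the same table. The Rbpj windows, from 53590096 to 53590485, lie inside the gene as deposited, which begins at 53466152. The match before Hey2 began 207 bases upstream of the RefSeq start, on the opposite strand. That start lies inside the gene as deposited, so the distance is not counted from the end of the sequence printed below. The sequences of Notch4 and Hey2 are shown because these were the 2 members called with the smallest adjusted p in the SuHx comparison below. Capitals mark the RBPJ motif, and bases that lie inside the gene as deposited were left off. The Notch4 sequence is chr17:34564045-34564267 on the plus strand and holds no match. The Hey2 sequence is chr10:30842802-30843033 on the minus strand and holds the match.
Notch4: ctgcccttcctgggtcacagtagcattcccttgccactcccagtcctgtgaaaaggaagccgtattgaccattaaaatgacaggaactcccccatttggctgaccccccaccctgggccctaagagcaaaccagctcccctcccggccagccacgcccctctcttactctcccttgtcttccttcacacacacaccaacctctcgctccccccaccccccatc
Hey2: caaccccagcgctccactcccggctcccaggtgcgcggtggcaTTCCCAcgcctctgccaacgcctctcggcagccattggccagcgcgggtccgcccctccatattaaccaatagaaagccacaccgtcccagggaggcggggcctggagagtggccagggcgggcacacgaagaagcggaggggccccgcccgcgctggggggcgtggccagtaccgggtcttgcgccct

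Per length, Jag2 and Dll4 were the most abundant members and Dll1 and Hey2 the least. The length merges all annotated exons of a gene, 14232 bases for Notch1, 12750 for Rbpj and 3852 for Dll4. The order need therefore not be that of the transcripts. As CPM per kilobase of exon, Jag2 averaged 6.69 ± 0.90 and Dll4 6.31 ± 1.55 (SD over all 8 libraries, conditions mixed). Heyl (4.63), Hey1 (4.28) and Notch4 (4.04) followed, then Rbpj (3.10), Notch1 (2.92) and Jag1 (2.75), and last Hey2 (1.41) and Dll1 (1.17 CPM per kilobase). The ranges of every pair of neighbours in this order overlapped over the 8 libraries. Within libraries, Dll4 was above Heyl in 8 of 8, whereas Heyl was above Hey1 in 4 of 8. Raw counts were 194 to 4099 per gene and library.

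**Figure D1:**
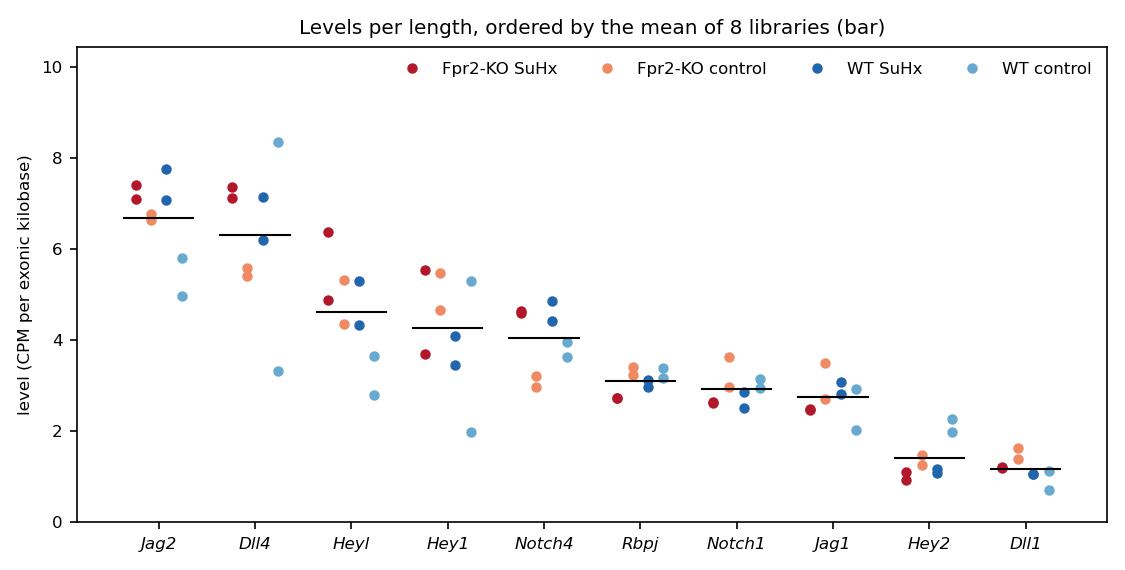
Level of each gene in CPM per exonic kilobase (vertical axis), 1 point per library coloured by group, with a bar at the mean of 8 libraries. Jag2 and Dll4 lie highest, at means of 6.69 and 6.31, and Dll1 lowest at 1.17, and neighbouring genes overlap.

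The first question is how these genes respond to SuHx. Averaged over both genotypes, Notch4 and Jag2 rose and Hey2 fell, and the other 7 members did not pass the test. In bulk tissue fewer cells of a type and less RNA per cell cannot be told apart. These 3 of 10 called members stand beside 29.6% of all 19083 tested genes called in the same comparison, so the share of members called was near that of the table. By direction, 2 of 10 were called higher (15.5% of all tested genes) and 1 of 10 lower (14.1%). The median log2 fold change was -0.04 over the 10 members and 0.01 over all tested genes. Levels in SuHx and control libraries did not overlap for 5 members, 2 higher (15.6% of tested genes) and 3 lower (13.6%).

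**Figure D2:**
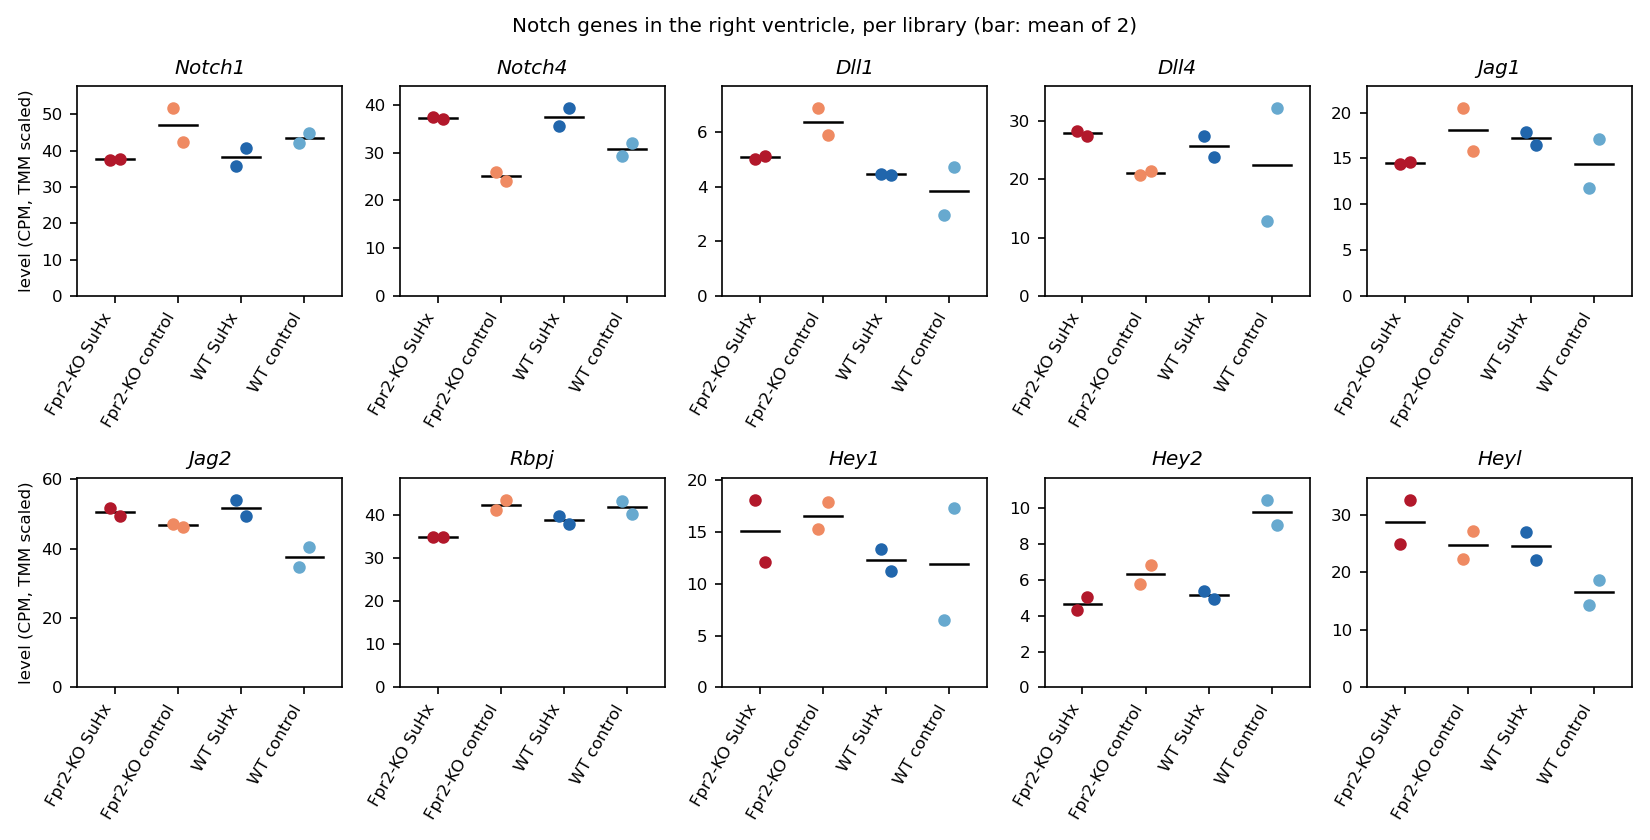
Level of each gene in CPM (vertical axis, from 0) in each library, as points by group, with a bar at the mean of 2 libraries. Notch4 lies higher in SuHx than in control in both genotypes and Hey2 lower, while Dll4 and Hey1 are far apart between the 2 WT control libraries.

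Among receptors, Notch4 (ENSMUSG00000015468, mm10 chromosome 17, 34564268 to 34588503, plus strand) had 37.5 and 37.0 CPM in Fpr2-KO SuHx libraries, against 26.00 and 23.99 CPM in Fpr2-KO control libraries. In WT it had 35.6 and 39.2 CPM under SuHx and 29.3 and 32.0 CPM in controls. All 4 SuHx libraries were above all 4 controls. The averaged log2 fold change was 0.43 ± 0.08 (SE; edgeR adjusted p = 0.00446), with 0.58 ± 0.11 in Fpr2-KO (adjusted p = 0.0175) and 0.29 ± 0.11 in WT (adjusted p = 0.0997). The averaged call held without each library in turn (edgeR adjusted p at most 0.0255). The call in Fpr2-KO was lost without Fpr2-KO SuHx library 2 (0.56, adjusted p = 0.11) or 3 (0.60, adjusted p = 0.0754) or Fpr2-KO control library 3 (0.52, adjusted p = 0.106).

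Notch1 (ENSMUSG00000026923, chromosome 2, 26457903 to 26516663, minus strand), a receptor of endothelium and many other tissues, had 37.4 and 37.8 CPM in Fpr2-KO SuHx and 51.6 and 42.4 CPM in Fpr2-KO control libraries. WT libraries had 35.7 and 40.7 CPM under SuHx and 42.0 and 44.7 CPM in controls. No SuHx library reached a control, yet the averaged log2 fold change of -0.25 ± 0.09 was not called by edgeR (adjusted p = 0.0616). DESeq2 called it, with adjusted p = 0.0395, and so did edgeR without Fpr2-KO control library 3 (-0.32, adjusted p = 0.0385). Of the other receptors, Notch3, known from mural cells, had 66.2 and 55.7 CPM in WT SuHx against 43.5 and 41.1 CPM in WT control libraries, and rose there (log2 fold change 0.53 ± 0.15, adjusted p = 0.0346). In Fpr2-KO it had 59.1 and 46.7 CPM under SuHx and 54.9 and 47.6 CPM in controls (0.05 ± 0.14, adjusted p = 0.883). The interaction (-0.48 ± 0.21, adjusted p = 0.384) and the averaged change (0.29 ± 0.10, adjusted p = 0.0662) were not called. Notch2 had an averaged change of -0.04 ± 0.11 (adjusted p = 0.809).

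Among ligands, Jag2 (ENSMUSG00000002799, chromosome 12, 112907819 to 112929776, minus strand) was the only one called. It had 54.1 and 49.3 CPM in WT SuHx libraries, against 34.6 and 40.5 CPM in WT control libraries (log2 fold change 0.46 ± 0.11, edgeR adjusted p = 0.0212). In Fpr2-KO it had 51.6 and 49.4 CPM under SuHx and 47.1 and 46.3 CPM in controls (0.11 ± 0.11, adjusted p = 0.569). The averaged change was 0.29 ± 0.08 (adjusted p = 0.0258). SuHx libraries of both genotypes thus lay close together, and the WT controls were the lowest libraries of the 8. In WT the call was lost without WT SuHx library 1 (0.40, adjusted p = 0.151) or 3 (0.53, adjusted p = 0.0704) or WT control library 1 (0.36, adjusted p = 0.0861). The averaged call was lost without any single library except WT control library 2 (adjusted p of 0.0517 to 0.109).

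Dll4 (ENSMUSG00000027314, chromosome 2, 119325784 to 119335962, plus strand), the ligand of arterial and sprouting endothelium, had 28.4 and 27.4 CPM in Fpr2-KO SuHx libraries and 20.8 and 21.5 CPM in Fpr2-KO controls. These do not overlap, and the log2 fold change was 0.40 ± 0.36 (edgeR adjusted p = 0.542). In WT it had 27.5 and 23.9 CPM under SuHx, between the control libraries at 12.8 and 32.2 CPM (0.19 ± 0.36, adjusted p = 0.757). Dll4 in Fpr2-KO was called without WT control library 1 (0.40, adjusted p = 0.0442) or 2 (0.41, adjusted p = 0.0473), although neither library belongs to the comparison: the pair enters the shared estimate of spread. Exons of Dll4 overlap an antisense gene, Gm14207, which held at most 40 counts in a library.

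Jag1 (ENSMUSG00000027276, chromosome 2, 137081456 to 137116644, minus strand), a ligand of endothelium and smooth muscle, had opposite signs in the genotypes without being called. Its levels were 14.4 and 14.6 CPM in Fpr2-KO SuHx against 20.4 and 15.8 CPM in Fpr2-KO control, and 17.9 and 16.4 CPM in WT SuHx against 11.8 and 17.1 CPM in WT control. The log2 fold changes were -0.32 ± 0.20 in Fpr2-KO and 0.25 ± 0.20 in WT (adjusted p = 0.33 and adjusted p = 0.411). Dll1 (ENSMUSG00000014773, chromosome 17, 15367354 to 15376872, minus strand), a further Delta ligand, was low everywhere, at 2.99 to 6.88 CPM. Its averaged change was -0.06 ± 0.18 (adjusted p = 0.821).

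Rbpj (ENSMUSG00000039191, chromosome 5, 53466152 to 53657362, plus strand), the DNA-binding partner of all Notch receptors, had the smallest spread of the members. It had 34.9 and 34.9 CPM in Fpr2-KO SuHx and 41.3 and 43.5 CPM in Fpr2-KO control libraries. WT libraries had 39.8 and 38.0 CPM under SuHx and 43.3 and 40.4 CPM in controls. All 4 SuHx libraries were below all 4 controls, with an averaged log2 fold change of -0.19 ± 0.07 that edgeR did not call (adjusted p = 0.0684) and DESeq2 did (adjusted p = 0.0495).

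Of the 3 Hey genes, Hey2 alone was called by edgeR. Hey2 (ENSMUSG00000019789, chromosome 10, 30832359 to 30842801, minus strand), a repressor of atrial genes in ventricular muscle, had 5.38 and 4.94 CPM in WT SuHx libraries, against 10.5 and 9.09 CPM in WT control libraries. In Fpr2-KO it had 4.31 and 5.04 CPM under SuHx and 5.79 and 6.84 CPM in controls. All 4 SuHx libraries were below all 4 controls, and the WT controls were the highest. The log2 fold change was -0.92 ± 0.19 in WT (edgeR adjusted p = 0.012), -0.43 ± 0.19 in Fpr2-KO (adjusted p = 0.184) and -0.68 ± 0.13 averaged (adjusted p = 0.0069). The averaged call held without each library in turn (adjusted p at most 0.0351) and was at -0.57 (adjusted p = 0.0514) without Fpr2-KO SuHx library 2 and WT control library 1 together. In WT the call was lost without WT SuHx library 1 (-0.98, adjusted p = 0.0701) or 3 (-0.86, adjusted p = 0.094).

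Heyl (ENSMUSG00000032744, chromosome 4, 123233556 to 123249875, plus strand) had 27.1 and 22.1 CPM in WT SuHx libraries, against 14.3 and 18.7 CPM in WT control libraries (log2 fold change 0.57 ± 0.19, edgeR adjusted p = 0.0704). DESeq2 called this WT change (0.56, DESeq2 adjusted p = 0.0363). In Fpr2-KO Heyl had 24.9 and 32.5 CPM under SuHx and 22.3 and 27.2 CPM in controls, which overlap (0.22 ± 0.19, edgeR adjusted p = 0.529). The averaged value of 0.39 ± 0.14 was not called by edgeR (adjusted p = 0.0601) and was called by DESeq2 (adjusted p = 0.0372) and, without WT control library 2, by edgeR (0.50, adjusted p = 0.0246). The 4 SuHx libraries and the 4 controls overlapped through the Fpr2-KO controls.

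Hey1 (ENSMUSG00000040289, chromosome 3, 8663359 to 8667256, minus strand) had 18.1 and 12.1 CPM in Fpr2-KO SuHx, 15.2 and 17.9 CPM in Fpr2-KO control, 13.4 and 11.3 CPM in WT SuHx and 6.50 and 17.3 CPM in WT control libraries. Its averaged log2 fold change was -0.04 ± 0.30 (edgeR adjusted p = 0.934). The higher Fpr2-KO SuHx value came from library 2, the one with atrial RNA, and the higher WT control value from library 2, where Myl7 was at 18.4 CPM against 3.19 CPM in library 1. The Fpr2-KO control libraries, with Myl7 at 0 and 0.33 CPM, had the 15.2 and 17.9 CPM of Hey1 given above. A fit without Fpr2-KO SuHx library 2 and WT control library 1 together kept WT control library 2 as the only WT control. That library had the higher Myl7 and the higher Hey1 of its group. The averaged change of Hey1 was then -0.47. Its sign turned with 1 library, at -0.31 (adjusted p = 0.184) without WT control library 1 and 0.40 (adjusted p = 0.109) without WT control library 2, neither called. The part of atrial RNA in the Hey1 values was not tested.

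**Figure D3:**
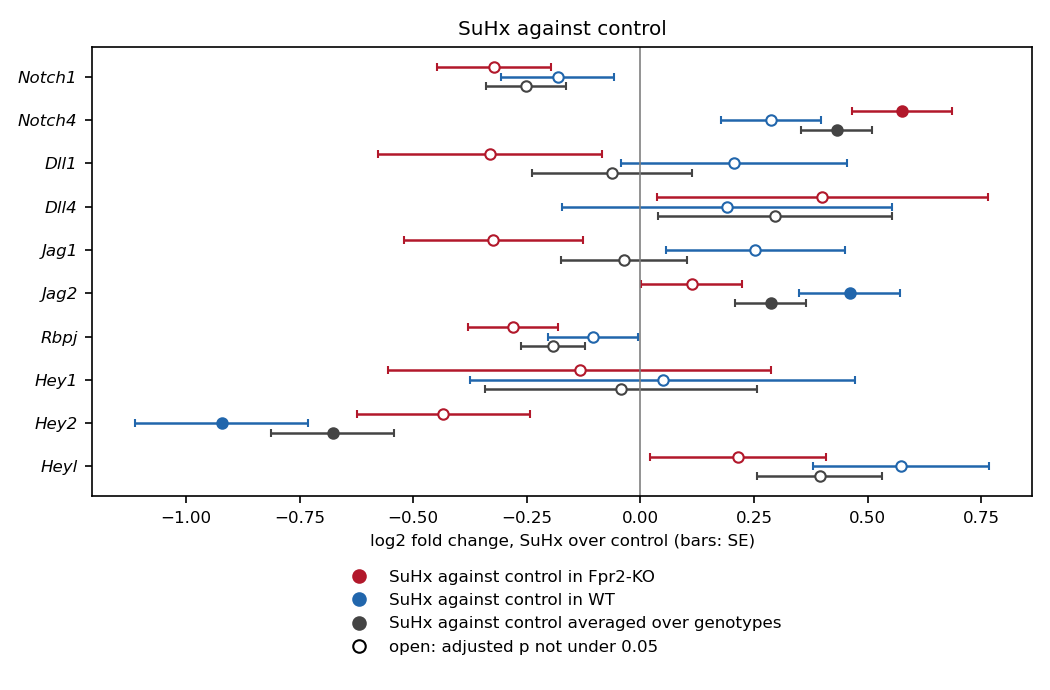
Log2 fold change of SuHx over control for each gene (horizontal axis, bars show the SE) in Fpr2-KO, in WT and averaged over both. Filled points passed the edgeR test: Notch4 at 0.58 in Fpr2-KO, Jag2 at 0.46 and Hey2 at -0.92 in WT, and these 3 genes in the average.

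Within single genotypes the members called were 2 of 10 in WT (Jag2 higher, Hey2 lower), beside 20.5% of all tested genes, and 1 of 10 in Fpr2-KO (Notch4 higher), beside 10.7%. Both shares are close to the background. Libraries of the groups did not overlap for 3 members higher and 3 lower in WT, beside 32.5% and 30.5% of all genes, and for 3 higher and 5 lower in Fpr2-KO, beside 30.9% and 28.1%. In WT and in Fpr2-KO alike, the counts of called members and of all called genes moved with the library left out. That a gene was called in 1 genotype alone does not show a difference between genotypes. The interaction test called 0 of 10 members and 0% of all genes (DESeq2 0 members; 0 at an unadjusted p under 0.05, beside 12.7% of all genes). Its values were 0.29 ± 0.16 for Notch4 (edgeR adjusted p = 0.486), -0.35 ± 0.16 for Jag2 (adjusted p = 0.403), 0.49 ± 0.27 for Hey2 (adjusted p = 0.5) and -0.58 ± 0.28 for Jag1 (adjusted p = 0.437).

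Markers of several cell types moved with SuHx as well, beside 15.5% of all tested genes called higher and 14.1% lower in the averaged comparison. Of 14 endothelial markers, 9 were called higher and 0 lower, and their summed level was 1192 to 1414 CPM in Fpr2-KO SuHx, 1076 to 1120 CPM in Fpr2-KO control, 1376 to 1534 CPM in WT SuHx and 1006 to 1063 CPM in WT control libraries. The 12 mural markers, which include Notch3, summed to 1342 to 1470 CPM in Fpr2-KO SuHx, 1073 to 1084 CPM in Fpr2-KO control, 1513 to 1545 CPM in WT SuHx and 924 to 953 CPM in WT control libraries, with 7 called higher and 0 lower. Of 10 tip cell markers, a list used for sprouting endothelium, 6 were called higher and 0 lower, and 7 had a positive log2 fold change. In Fpr2-KO they summed to 518 to 540 CPM under SuHx and 303 to 310 CPM in controls. In WT they summed to 515 to 638 CPM under SuHx and 276 to 287 CPM in controls. Most of each sum came from Col4a1 and Cd34, at 380 and 181 CPM in WT SuHx library 1. Esm1 and Kcne3 were low, at no more than 1.05 and 0.66 CPM in a library. Esm1 had 0.82 and 1.04 CPM in WT SuHx against 0.11 and 0.17 CPM in WT control libraries. Its Fpr2-KO levels were 1.05 and 0.80 CPM under SuHx against 0.43 and 0.30 CPM in controls. Kcne3 had 0.47 and 0.38 CPM in WT SuHx against 0 and 0.11 CPM in WT control libraries, and overlapped in Fpr2-KO. Of 10 arterial markers, which include Hey1, 4 were called higher and 0 lower, and of 8 macrophage markers 5 were called higher and 0 lower. Other lists did not rise alike. Of 6 endocardial markers 0 were called higher and 1 lower. Their sums were 81.3 to 87.4 CPM in WT SuHx and 103 to 134 CPM in WT control libraries. In Fpr2-KO they were 160 CPM in SuHx library 2, the one with atrial RNA, and 102 CPM in SuHx library 3. Fpr2-KO control libraries had 104 to 110 CPM. Of 8 fibroblast markers 3 were called higher and 2 lower, and of 5 lymphatic markers 1 higher and 0 lower. The 9 ventricular muscle markers, which include Hey2, summed to 30076 to 33501 CPM in Fpr2-KO SuHx, 31146 to 38548 CPM in Fpr2-KO control, 36932 to 38549 CPM in WT SuHx and 30183 to 30560 CPM in WT control libraries, and 2 were called higher and 3 lower. The part of these markers in the members' values was not tested.

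Levels of the 2 members called higher were also set against the endothelial and the mural sums (the mural one without Notch3), ratios chosen after the values were seen. Per 1000 CPM of endothelial markers, Notch4 had 26.5 and 31.1 CPM in Fpr2-KO SuHx against 24.2 and 21.4 CPM in Fpr2-KO control, without overlap. In WT it had 23.2 and 28.5 CPM under SuHx against 27.6 and 31.8 CPM in controls, which overlap. Per 1000 CPM of mural markers, Notch4 had 26.6 and 28.6 CPM in Fpr2-KO SuHx against 25.5 and 23.1 CPM in Fpr2-KO control, again higher. In WT it was lower without overlap on that ratio, at 24.04 and 26.92 CPM under SuHx against 32.2 and 36.2 CPM in controls. The direction of Notch4 in WT thus turned with the ratio.

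Jag2 overlapped between SuHx and control in both genotypes per endothelial sum. Per 1000 CPM of mural markers it was lower without overlap in both, at 36.6 and 38.1 CPM in Fpr2-KO SuHx against 46.3 and 44.6 CPM in Fpr2-KO control, and at 36.6 and 33.8 CPM in WT SuHx against 38.1 and 45.8 CPM in WT control. Both marker sums were higher in all 4 SuHx libraries than in all 4 controls, so for members already lower there, such as Hey2, the ratio had to be lower and is not given.

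The rest of the pathway was read from lists chosen with earlier results known. Of 19 tested genes that process or present ligands and receptors, 6 were called higher and 2 lower in the averaged comparison, against 15.5% and 14.1% of all tested genes. The higher ones include Neurl1b, a ligand ubiquitin ligase (log2 fold change 0.90 ± 0.15), Mfng, a Fringe glycosyltransferase (0.68 ± 0.14), and the proteases Adam10 (0.38 ± 0.08) and Adam17 (0.57 ± 0.14), which cut the receptor outside the membrane. Mib1, the main ubiquitin ligase of Notch ligands, was lower (-0.61 ± 0.07, adjusted p = 0.000651), at 32.2 and 35.9 CPM in Fpr2-KO SuHx against 48.5 and 49.3 CPM in Fpr2-KO control, and at 32.2 and 32.0 CPM in WT SuHx against 52.8 and 50.9 CPM in WT control. The convertase Furin was lower by -0.49 ± 0.09. Lfng, another Fringe gene, was at -0.01 ± 0.14 (adjusted p = 0.983).

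Of 18 genes of the nuclear complex and its regulators, 2 were called higher and 11 lower, against 15.5% and 14.1% of all tested genes, with a median log2 fold change of -0.38 (0.01 over all tested genes). The 2 higher ones, named after their values were seen, were Dtx3 (0.45 ± 0.09), of the Deltex family, and Numb (0.34 ± 0.08), an inhibitor of Notch. The coactivator genes Maml3 (-0.94 ± 0.14) and Kat2b (-0.53 ± 0.06), the corepressor gene Spen (-0.79 ± 0.16), the demethylase gene Kdm5a (-0.46 ± 0.09) and Snw1 (-0.38 ± 0.08) were among the lower. The list holds coactivators and corepressors of Notch together, and most of these proteins also serve other transcription factors. Of 9 tested genes of other targets, 2 were called higher and 1 lower. Nrarp, a feedback inhibitor of Notch, had 12.81 and 13.04 CPM in Fpr2-KO SuHx against 10.2 and 9.18 CPM in Fpr2-KO control, and 18.3 and 13.7 CPM in WT SuHx against 7.67 and 12.4 CPM in WT control. Its averaged change was 0.54 ± 0.17 (adjusted p = 0.0393). Ccnd1, a cyclin gene with many inputs, rose by 1.48 ± 0.21 and Myc fell by 1.85. Hes1, a direct target in many cells, was at -0.43 ± 0.21 (adjusted p = 0.163). Of the receptors and ligands outside the 10, the list of 6 had 3 tested genes. In the averaged comparison 0 of these were called (edgeR; 1 at an unadjusted p under 0.05), and in WT Notch3 was, as given above, while Dll3, Dlk1 and Dner were at or near 0.

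Pairs of libraries within a group had their widest median difference in WT control. There, library 2 was above library 1 in 8 of 10 members (50.0% of all tested genes). Dll4 was 2.50 times and Hey1 2.66 times as high in library 2 as in library 1, differences that 10.4% and 9.39% of all tested genes reached. Hes1 was 2.00 times and Nrarp 1.62 times as high. The median absolute log2 difference over the 10 members was 0.30 there, beside 0.31 over all tested genes, so the members as a group were no more spread than the table. In Fpr2-KO SuHx the median was 0.04 beside 0.21, in Fpr2-KO control 0.22 beside 0.24 and in WT SuHx 0.14 beside 0.19.

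**Figure D4:**
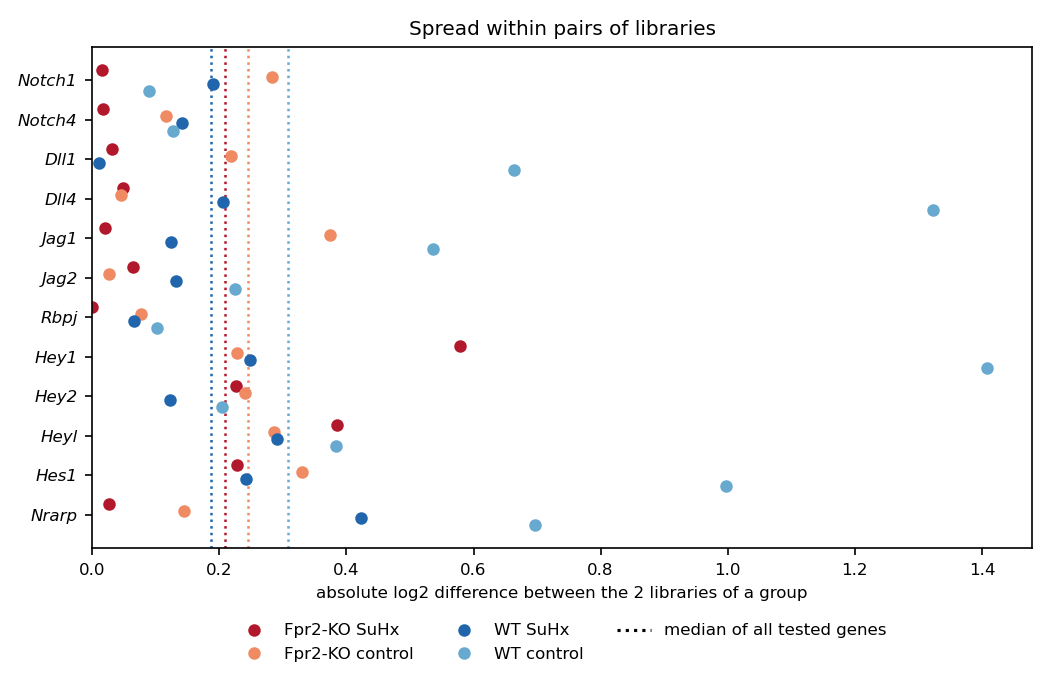
Absolute log2 difference between the 2 libraries of each group (horizontal axis) for the 10 genes, Hes1 and Nrarp, with dotted lines at the median of all tested genes per group. The WT control points of Hey1 (1.41), Dll4 (1.32) and Hes1 (0.998) lie farthest right.

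These WT control libraries decide several comparisons. Without library 2, SuHx in WT gave log2 fold changes of 1.01 for Dll4 (edgeR adjusted p = 0.00273), 0.93 for Hey1 (adjusted p = 0.0401) and 0.78 for Heyl (adjusted p = 0.0332), each called. Without library 1, the values of Dll4 and Hey1 were -0.32 and -0.49, and neither was called. The direction of Dll4 and Hey1 under SuHx in WT thus turned with the control library that was kept.

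The second question is whether loss of Fpr2 alters these genes. In control mice edgeR called 0 of 10 members, beside 2.6% of all tested genes, and 5 of 10 had an unadjusted p under 0.05, beside 20.8%. DESeq2 called Hey2 and Heyl, among 1944 genes that it called in this comparison. Hey2 had 5.79 and 6.84 CPM in Fpr2-KO control against 10.5 and 9.09 CPM in WT control libraries (log2 fold change -0.63 ± 0.19, edgeR adjusted p = 0.108, DESeq2 adjusted p = 0.0434). Heyl had 22.3 and 27.2 CPM in Fpr2-KO control against 14.3 and 18.7 CPM in WT control libraries (0.58 ± 0.19, edgeR adjusted p = 0.136, DESeq2 adjusted p = 0.0492). Jag2 (0.31 ± 0.11, adjusted p = 0.154) and Dll1 (0.72 ± 0.25, adjusted p = 0.146) were higher without overlap and Notch4 (-0.29 ± 0.11, adjusted p = 0.175) lower without overlap, none of them called. In all, 3 members were higher without overlap (23.5% of tested genes) and 2 lower (24.3%). Without WT control library 2, the log2 fold changes were 1.11 for Dll1, 0.73 for Dll4, 0.44 for Jag2, 1.36 for Hey1 and 0.80 for Heyl. Without WT control library 1 they were 0.43 for Dll1, -0.60 for Dll4, 0.21 for Jag2, -0.06 for Hey1 and 0.41 for Heyl. The number of all genes called moved with the library left out as well. With all libraries Dll4 was at -0.09 ± 0.36 and Hey1 at 0.47 ± 0.42.

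In SuHx mice edgeR called 0 of 10 members and 0% of all tested genes, with 0 members at an unadjusted p under 0.05, beside 3.48% of all genes, and 0 called by DESeq2. Notch4 had 37.5 and 37.0 CPM in Fpr2-KO SuHx against 35.6 and 39.2 CPM in WT SuHx libraries, a log2 difference of -0.00 ± 0.11. Jag2 (-0.03 ± 0.11), Notch1 (-0.03 ± 0.12), Hey2 (-0.14 ± 0.19) and Rbpj (-0.16 ± 0.10) were within 2 SE of 0, as were Dll1 (0.19 ± 0.25), Dll4 (0.12 ± 0.36), Jag1 (-0.25 ± 0.20), Hey1 (0.29 ± 0.42) and Heyl (0.22 ± 0.19). Averaged over treatments, 0 of 10 members and 0% of all genes were called by edgeR (3 members at an unadjusted p under 0.05, beside 14.4% of all genes, and 0 by DESeq2). Dll1 was the member whose 4 Fpr2-KO libraries (5.03 to 6.88 CPM) all lay above the 4 WT libraries (2.99 to 4.75 CPM), which 1.16% of tested genes did, at 0.46 ± 0.18 (adjusted p = 0.294).

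**Figure D5:**
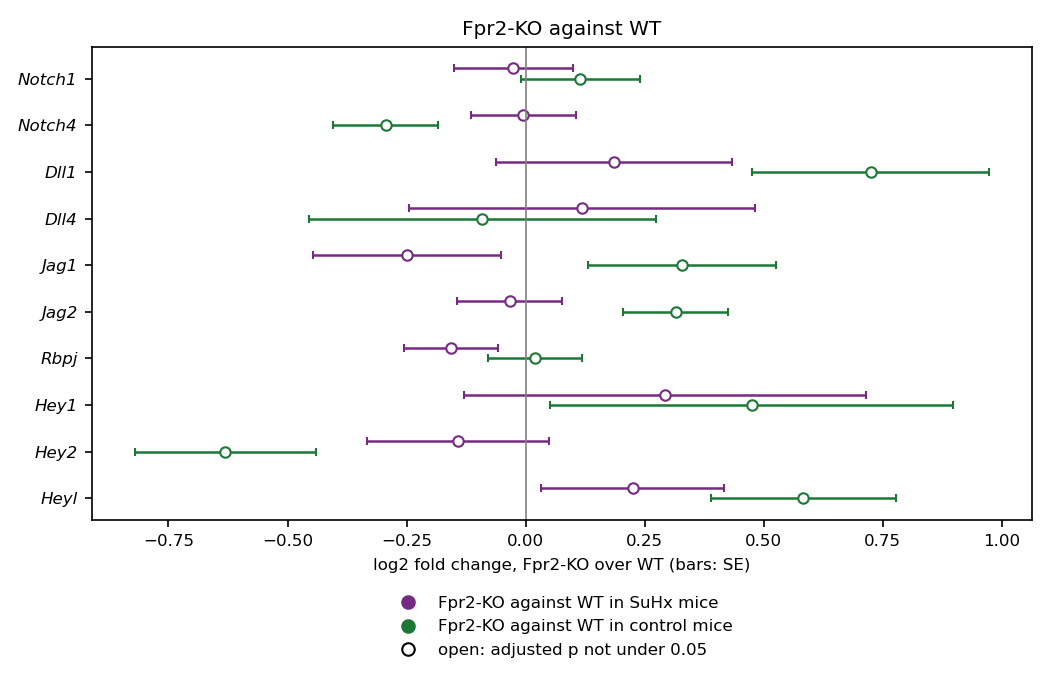
Log2 fold change of Fpr2-KO over WT for each gene (horizontal axis, bars show the SE) in SuHx mice and in control mice. Every point is open, since none passed the edgeR test, and the values in control mice run from -0.63 for Hey2 to 0.72 for Dll1.

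Genes with the most similar profile were sought among 10330 other tested genes with a mean of at least 5 CPM, by the root mean square difference of centred log2 CPM over the 8 libraries, where a smaller value is more alike. For Notch4 they were Hdac1 (0.05), Tmem179b (0.07) and Cdk10 (0.07), against the gene's own spread of 0.25. For Jag2 they were Zhx1, Ptp4a2 and Ankfy1 (0.06 each, own spread 0.20). For Hey2 they were Hs6st1, Ybx3 and Zfp512b (0.09 each, own spread 0.42). None of these 9 genes is on the lists of Notch or cell type markers used here.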

How the data were processed

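Poly(A)-selected RNA of the right ventricle was sequenced in pairs from 8 libraries in 4 groups. The authors deposited counts per gene, as the column headers name them, beside a second measure. The submitters' processing notes name cutadapt 1.9, HISAT2 2.2.1, StringTie 2.1.6, DESeq2, edgeR and the mm10 build. Their order, the counting strand and the gene annotation are not stated in those notes, while the labels' protocols describe a strand-marking library kit. The 8 columns of another measure were not used. Counts were tested with edgeR 4.0.16 (R 4.3.3) after filterByExpr by group, which kept 19083 of 30495 genes, TMM scaling and 1 robust quasi-likelihood fit of 4 group means, with Benjamini-Hochberg adjustment over the 19083 genes. Standard errors are those implied by the F statistic. Levels per length are CPM per kilobase of exon in GENCODE M21, used in place of the deposited normalized values planned for that purpose. DESeq2 1.42.0, size factors of DESeq2, no filter, left-out libraries, fits of 2 groups alone and a block by the number in the column name were the other alternatives. The edgeR test was tested on simulated data. All 10 members, the marker lists, the named genes and the libraries left out together were chosen with earlier results of these data known. Every member is named. Of the other Notch lists, up to 6 genes called in the averaged SuHx comparison, and Notch2, Notch3, Hes1, Nrarp and Lfng, are named. A further gene that this rule names is not reported here. Groups follow the sample titles. The column numbers match the titles in WT control alone, so the other 6 columns were used as unnumbered replicates of their group.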

Additional observations from a re-analysis of the deposited data

How the results depend on the processing

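Main counts of all called genes were 3919 for SuHx in WT, 2038 for SuHx in Fpr2-KO, 497 for Fpr2-KO against WT in control mice, 5646 for SuHx averaged, and 0 for Fpr2-KO against WT in SuHx mice, averaged over treatments, and for the interaction. DESeq2 called 3241 for SuHx in Fpr2-KO, 1944, 23 and 687 for genotype in control mice, in SuHx mice and averaged, and 584 for the interaction. For SuHx averaged it called 6 members and 6437 of all genes, where edgeR called 3 members and 5646 genes. For genotype in control mice it called 2 members, beside the 1944 genes given above. The replicate block by column number gave 1164 genes for SuHx in Fpr2-KO and 9, 1 and 2 for genotype in control mice, in SuHx mice and averaged, and changed no member's call. Library 2 and 3 differences correlated at 0.0013 between the Fpr2-KO groups. With a single difference per group, and atrial RNA in Fpr2-KO SuHx library 2, this cannot exclude that the numbers mark something shared. The WT groups were not checked. With no filter 12 genes were called for the interaction and 13 for genotype averaged. Fits of the 2 groups alone gave 0 and 2 genes for genotype in control and SuHx mice, and 1 member for SuHx in WT. Without Fpr2-KO SuHx library 2 and WT control library 1, all genes called were 2233 and 937 for SuHx in WT and Fpr2-KO, with 0 members in each, then 43, 3 and 5 for genotype and 2 for the interaction. Leaving out 1 library each gave 1328 to 4289 genes and 0 to 5 members for SuHx in WT, 290 to 3051 and 0 to 2 for SuHx in Fpr2-KO, and 3498 to 5844 and 2 to 5 for SuHx averaged. For genotype it gave 0 to 2370 genes and 0 to 5 members in control mice, 0 to 5 genes in SuHx mice, 0 to 1189 genes and 0 to 3 members averaged, and 0 to 756 genes for the interaction. A group left with 1 library was assumed to vary like the others. For genotype in control mice Dll4 was at -0.09 in the main result and ran from -0.60 without WT control library 1 to 0.73 without WT control library 2, a reversal, and the cause was not tested. Of single-gene values under all alternatives, 906 kept their status, most of them not called in the main result either. A call was lost in 21 and gained in 22, and 1 value reversed. A limma fit of the authors' normalized values was not run.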
